A study of Mus musculus with 4 samples.

Results

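The genes described here are Fkbp5 and 9 genes that belong to the response to glucocorticoids: the receptor gene Nr3c1 and the known targets Tsc22d3, Klf15, Klf9, Mt1, Mt2, Ddit4, Zbtb16 and Sgk1. They are 10 of 32868 gene names measured in mouse tibialis anterior, a muscle of the shin made mostly of fast fibres. Fkbp5 was selected on its much higher RPKM in Nf1-deleted muscle, so its difference between the genotypes is described and not tested. The other 9, and the gene lists counted further below, were chosen for their known function, but with earlier results of these data known. Each of the 10 names had a single row in every library, and all 10 passed the filter on low values (at least 0.5 RPKM in at least 2 of the 4 libraries).

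The muscle came from C57BL/6 mice at postnatal day 21. The Nf1-KO group carried 2 floxed alleles of Nf1, which codes for neurofibromin, a protein that switches off Ras, and the Het group carried 1 floxed and 1 unaltered allele. Myf5+ in both groups' labels stands, in crosses like this, for a Cre recombinase driven by Myf5, a gene of muscle precursors, so that cells outside that lineage keep Nf1. There were 2 libraries per group. Nothing in the labels tells if they were of separate animals, so p-values measure the spread between libraries only. No library of a mouse without a floxed allele was part of the comparison.

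Glucocorticoids are steroid hormones of the adrenal gland. They bind the glucocorticoid receptor, held ready in the cytoplasm by the chaperone Hsp90 and its co-chaperones, and the receptor then enters the nucleus and binds DNA at glucocorticoid response elements. In skeletal muscle the hormone is known for raising amino acid release, sparing glucose and, at high levels, causing atrophy. Fkbp5 codes for FKBP51, a co-chaperone that lowers the receptor's affinity for hormone and is itself induced by the receptor, which makes it a widely used readout of receptor activity.

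Nf1 itself was 1.09 and 1.01 RPKM in Het and 0.89 and 0.85 RPKM in Nf1-KO, where RPKM is reads per kilobase of gene, scaled to the reads of the library. Its log2 fold change of -0.18 was close to the threshold (limma adjusted p 0.041), and the call was lost with unscaled values (0.094), with no filter (0.081), with a replicate block (0.054) and when any single library was left out (0.060 to 0.176). With a pseudocount of 0.1 RPKM in place of 1 the log2 fold change of Nf1 was -0.33. The authors' deposited table gave -0.38 (DESeq2 adjusted p 0.0026). Muscle markers were abundant in every library, with a sum over 7 genes of 38393 to 38541 RPKM in Het and 31285 to 31617 RPKM in Nf1-KO. Over all 10690 genes tested with limma, 50.3% had an adjusted p under 0.05, 24.9% higher and 25.4% lower in Nf1-KO. With unscaled values the share of higher genes among the called ones was 66.6% in place of 49.5%. The counts below are to be read against these shares, since a gene taken at random was called about as often as not.

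Promoters were compared in the RefSeq table of build GRCm38.p6, which held 8 of the 10 genes; Nr3c1 and Zbtb16 had no entry. The 250 bases before the annotated start were searched on both strands for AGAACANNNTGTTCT (the palindromic glucocorticoid response element), the relaxed form GNACANNNTGTNC, the half-site AGAACA, and the core of the metal response element, TGCGCNC or TGCACNC. Every palindrome also holds the relaxed form and 2 half-sites. The palindrome occurred in 3 of 32851 windows (0.00913%), the relaxed form in 127 (0.387%), the half-site in 16.1%, TGCGCNC in 12.5% and TGCACNC in 10.4%. A match is only a string of letters, and a window without one says nothing of elements further away. Windows of 4 genes are shown because they are those of the gene chosen for its rise, of the neighbouring metallothionein pair and of the only gene here with a palindrome. Capitals mark matches to any of the searched strings.
Fkbp5: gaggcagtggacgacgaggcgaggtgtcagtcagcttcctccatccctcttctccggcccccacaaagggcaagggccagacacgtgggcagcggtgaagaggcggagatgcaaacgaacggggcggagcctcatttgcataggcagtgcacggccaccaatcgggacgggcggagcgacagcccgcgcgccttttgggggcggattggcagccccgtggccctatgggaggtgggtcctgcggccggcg
Mt2: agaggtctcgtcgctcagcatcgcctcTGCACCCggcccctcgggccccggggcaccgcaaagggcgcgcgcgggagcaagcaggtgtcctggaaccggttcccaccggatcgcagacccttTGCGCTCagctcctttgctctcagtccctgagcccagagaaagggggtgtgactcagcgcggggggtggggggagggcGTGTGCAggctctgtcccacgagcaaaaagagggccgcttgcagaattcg
Mt1: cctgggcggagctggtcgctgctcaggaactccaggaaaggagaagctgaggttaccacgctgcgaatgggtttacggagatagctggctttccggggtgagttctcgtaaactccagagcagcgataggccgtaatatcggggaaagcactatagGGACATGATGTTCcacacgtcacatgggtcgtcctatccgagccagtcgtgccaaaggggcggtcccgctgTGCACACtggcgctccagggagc
Sgk1: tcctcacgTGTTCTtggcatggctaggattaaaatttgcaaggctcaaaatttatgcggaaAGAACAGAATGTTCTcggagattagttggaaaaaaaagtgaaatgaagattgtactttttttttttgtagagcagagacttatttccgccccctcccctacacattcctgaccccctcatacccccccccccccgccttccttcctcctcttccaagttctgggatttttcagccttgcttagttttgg

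The Fkbp5 window (chr17:28486150-28486399, minus strand) held none of the searched strings and was 68.0% G or C, against a median of 52.4% over all windows. The Mt2 window (chr8:94172368-94172617, plus strand) held 3 metal response cores, 1 TGCGCNC and 2 TGCACNC. The Mt1 window (chr8:94178839-94179088, plus strand) held 1 TGCACNC and 1 relaxed glucocorticoid element. For Sgk1 the table lists 6 starts, and the window shown (chr10:21993640-21993889, plus strand) is the one with the palindrome, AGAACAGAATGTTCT, which lies 189 to 175 bases before that start. The values below are per gene and do not tell which of these starts was used. Klf15 and Ddit4 each had 1 TGCGCNC, 1 of the 3 Tsc22d3 windows had a half-site, and the Klf9 window had no match.

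Fkbp5 was 5.67 and 5.52 RPKM in Het and 27.9 and 27.25 RPKM in Nf1-KO. Both Nf1-KO libraries were far above both Het libraries, and the libraries of each group lay close together. The means were 5.59 ± 0.106 and 27.6 ± 0.460 RPKM (SD, n = 2), a ratio of 4.93. On the log2(RPKM + 1) scale, which understates changes of low values, the difference was 2.03, the 14th highest of the 10690 genes. In the authors' deposited table Fkbp5 had a mean normalized count of 3379 per library, so the value rests on many reads.

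**Figure D1:**
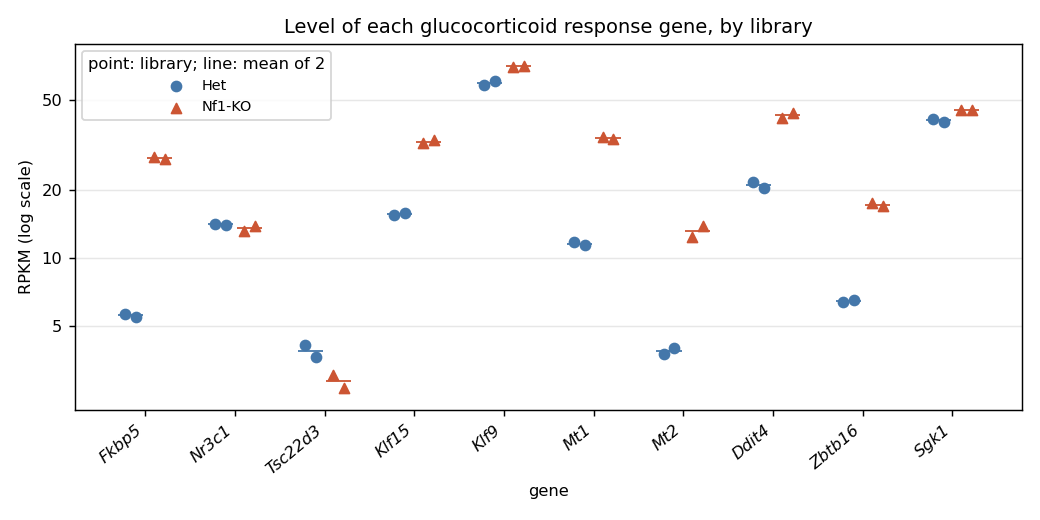
Level of each of the 10 genes in RPKM, on a log axis. Circles are the 2 Het libraries, triangles the 2 Nf1-KO libraries and short lines the group means. Fkbp5 goes from 5.59 to 27.6 RPKM on average, while Nr3c1 has means of 14.1 and 13.6 RPKM.

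The receptor gene Nr3c1 differed little. It was 14.11 and 14.03 RPKM in Het and 13.23 and 13.9 RPKM in Nf1-KO. The groups did not overlap, as was so for 77.3% of all tested genes, but the gap between the nearest libraries was smaller than the gap within Nf1-KO. Its log2 fold change was -0.14 ± 0.036 (standard error; limma adjusted p 0.020). This call was lost with unscaled values (-0.05, limma adjusted p 0.291) and with no filter (-0.14, limma adjusted p 0.051). It was also lost when either Het library or the first Nf1-KO library was left out, with log2 fold changes of -0.14, -0.15 and -0.10. The authors' deposited table gave -0.16 (DESeq2 adjusted p 0.0025). The ratio of Fkbp5 to Nr3c1, both per kilobase, was 0.402 and 0.393 in Het and 2.11 and 1.96 in Nf1-KO.

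Of the 9 genes other than Fkbp5, 8 passed the limma threshold, 6 higher and 2 lower in Nf1-KO, against 50.3% of all tested genes (24.9% higher, 25.4% lower). The median log2 fold change of the 9 was 0.89, and that of all tested genes was 0.00. The log2 fold changes fell into a set between 0.89 and 1.45 and a set between -0.42 and 0.15, with none between these. The first set was Mt1, Mt2, Zbtb16, Klf15 and Ddit4, and the second was Klf9, Sgk1, Nr3c1 and Tsc22d3.

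**Figure D2:**
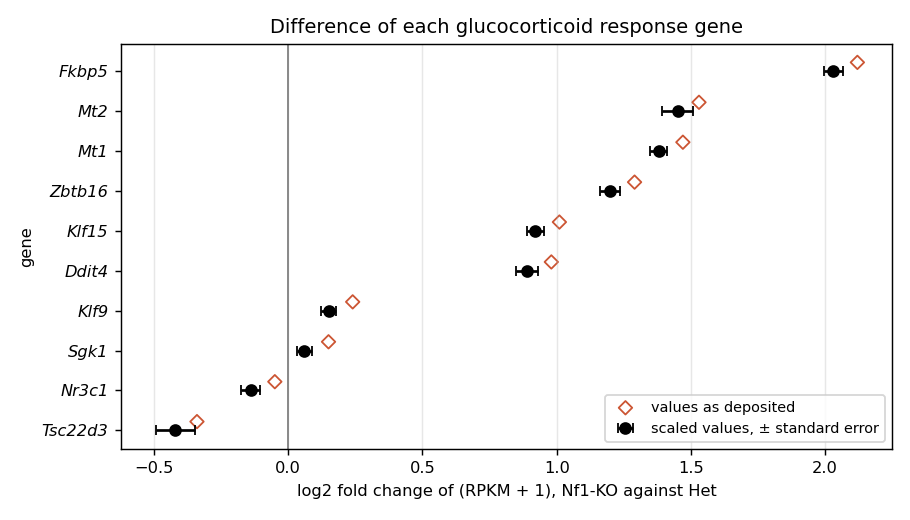
Log2 fold change of each gene in Nf1-KO against Het, as log2(RPKM + 1). Filled circles with bars are scaled values ± the standard error from limma, and open diamonds are values as deposited. Sgk1 and Nr3c1 lie nearest to 0, at 0.06 and -0.14, and Tsc22d3 is the lowest at -0.42. Fkbp5 is shown as a description with no test.

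The metallothionein genes Mt1 and Mt2 code for small cysteine-rich proteins that bind zinc and copper. They respond to glucocorticoids and, through the metal-responsive factor Mtf1, to metals. Mt1 was 11.74 and 11.43 RPKM in Het and 34.25 and 33.45 RPKM in Nf1-KO. Both Nf1-KO libraries held nearly 3 times the Het level (ratio of means 2.92), and the log2 fold change was 1.38 ± 0.032 (standard error; limma adjusted p 9.8e-07). Mt2 was 3.79 and 4.02 RPKM in Het and 12.43 and 13.89 RPKM in Nf1-KO. It rose by a similar amount, with a ratio of means of 3.37 and a log2 fold change of 1.45 ± 0.059 (standard error; limma adjusted p 8.2e-06).

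Mt2 was the thinnest measurement of the set, with a mean normalized count of 221 in the authors' deposited table against 799 for Mt1. Within each library Mt2 was 0.323 and 0.352 of Mt1 in Het and 0.363 and 0.415 in Nf1-KO. The 2 genes are neighbours, with starts 6471 bases apart in GRCm38.p6. The longest coding GENCODE M21 transcript of each shares no stretch of 36 bases with the other gene or with any further gene. An exon of Mt2 overlaps one of Gm45774 on the opposite strand, and the sources used here do not say if strand was used in counting, so its value may hold reads of both.

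Of 7 other genes of metal handling, 6 were tested, 1 was higher (Mt3) and 1 lower (Slc39a14) past the limma threshold, and the median log2 fold change was 0.00. Mt3 (0.41 and 0.42 RPKM in Het, 0.87 and 0.8 RPKM in Nf1-KO) passed the filter only through the group where it is high, and without it 5 were tested and 1 was called. Slc39a14, a zinc and iron importer, fell from 1.39 ± 0.0283 to 1.03 ± 0.0990 RPKM (SD, n = 2), which on the log2 scale is a change of -0.29 (limma adjusted p 0.0089). It lost that call without the second Nf1-KO library (-0.23, limma adjusted p 0.058), and the 5 then tested held 0 genes called by limma, with 1 at an unadjusted p under 0.05. Mtf1 was 2.82 and 2.76 RPKM in Het and 2.6 and 2.64 RPKM in Nf1-KO and did not pass (log2 fold change -0.14, limma adjusted p 0.061). The zinc exporter Slc30a1, a target of Mtf1, was 2.45 and 2.1 against 2.75 and 2.97 RPKM and did not pass either (log2 fold change 0.17, limma adjusted p 0.085). The count of this list also rose under some settings. With unscaled values 3 passed, 2 higher and 1 lower, and without a variance trend 3 passed, 1 higher and 2 lower.

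Zbtb16 codes for PLZF, a zinc-finger repressor that is strongly induced by glucocorticoids in several tissues. It was 6.39 and 6.55 RPKM in Het and 17.44 and 16.97 RPKM in Nf1-KO. Both Nf1-KO libraries were more than 10 RPKM above both Het libraries, with a ratio of means of 2.66. It rose by 1.20 ± 0.037 on the log2 scale (standard error; limma adjusted p 2.7e-06). PLZF also marks some innate-like T cells. The T cell marker Cd3e was listed at 0.01 to 0.10 RPKM in the 4 libraries, too low to be tested. The part of such cells in the Zbtb16 values was not tested.

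Klf15 codes for a transcription factor that works with the glucocorticoid receptor in muscle and promotes amino acid breakdown and lipid use. It was 15.47 and 15.81 RPKM in Het and 32.06 and 33.01 RPKM in Nf1-KO. Its level in Nf1-KO was 2.08 times that in Het, and the log2 fold change was 0.92 ± 0.031 (standard error; limma adjusted p 3.5e-06). The list of 5 genes known to need Klf15 was, like the other lists, chosen with earlier results of these data known. All 5 were higher past the limma threshold, against 24.9% of all tested genes. Their median log2 fold change was 0.75. Fabp3, the fatty acid carrier of heart and muscle, rose from 722 ± 6.82 to 1669 ± 28.7 RPKM (SD, n = 2). Slc25a20, which carries acylcarnitines into mitochondria, rose by 0.75 on the log2 scale. Prodh, proline dehydrogenase, rose by 0.86, the branched-chain aminotransferase Bcat2 by 0.66 and the alanine aminotransferase Gpt by 0.35. These 5 genes also respond to other regulators of fuel use, whose part was not tested.

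Klf9, a related factor that glucocorticoids also induce, was the most abundant of the 10 genes in both groups. It was 57.88 and 60.4 RPKM in Het and 69.57 and 70.33 RPKM in Nf1-KO. The groups stood apart, yet the difference was small beside that of Klf15: the ratio of means was 1.18 and the log2 fold change 0.15 ± 0.028 (standard error; limma adjusted p 0.0061). With unscaled values it was 0.24 (limma adjusted p 8.3e-04). The ratio of Klf15 to Klf9 was 0.267 and 0.262 in Het and 0.461 and 0.469 in Nf1-KO.

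Ddit4 codes for REDD1, an inhibitor of mTORC1 that glucocorticoids, low oxygen and energy stress induce. It was 21.76 and 20.39 RPKM in Het and 41.52 and 43.64 RPKM in Nf1-KO. The Nf1-KO level was 2.02 times the Het level, and the log2 fold change was 0.89 ± 0.040 (standard error; limma adjusted p 1.2e-05).

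Sgk1, the serum- and glucocorticoid-induced kinase, was second in abundance and did not pass the threshold. It was 41.09 and 39.78 RPKM in Het and 45.08 and 44.88 RPKM in Nf1-KO. As deposited, both Nf1-KO libraries were above both Het libraries, with a ratio of means of 1.11, and the call depended on scaling. For scaled values the log2 fold change was 0.06 ± 0.027 (standard error; limma adjusted p 0.120), and for unscaled values it was 0.15 (limma adjusted p 0.0046). The authors' deposited table gave 0.05 with an adjusted p of 0.308. This is the gene whose window shown above holds the palindromic element.

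Tsc22d3 codes for GILZ, the glucocorticoid-induced leucine zipper, and was the gene with the largest fall. It was 4.13 and 3.67 RPKM in Het and 3.04 and 2.68 RPKM in Nf1-KO. The groups did not overlap, but its replicates were the most spread of the 10 genes, with a coefficient of variation of 8.34% in Het and 8.90% in Nf1-KO. The median over 4826 genes of at least 5 RPKM was 2.03% and 1.91%. Tsc22d3 itself lies below 5 RPKM and so outside that set of more abundant genes. It fell by 0.42 ± 0.072 on the log2 scale (standard error; limma adjusted p 0.0038), and over the alternatives it ran from -0.53 to -0.34 with limma adjusted p from 0.0012 to 0.038. In the authors' deposited table it was -0.55, with a mean normalized count of 427. Of the 36-base stretches in its longest coding transcript, 1.86% also occur in another gene, most of all Gm8812, the highest share of the 10 genes.

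The order of levels changed between the groups. In Het it was Klf9, Sgk1, Ddit4, Klf15, Nr3c1, Mt1, Zbtb16, Fkbp5, Mt2 and Tsc22d3, and the neighbours Mt2 and Tsc22d3 overlapped at a mean of 3.90 RPKM each. In Nf1-KO it was Klf9, Sgk1, Ddit4, Mt1, Klf15, Fkbp5, Zbtb16, Nr3c1, Mt2 and Tsc22d3, where Nr3c1 and Mt2 overlapped. Fkbp5 thus stood in the eighth place in Het and in the sixth in Nf1-KO, and Nr3c1 went from the fifth to the eighth without a large change in its own level. These levels are per kilobase, so they can be compared between genes as far as the authors' gene lengths hold.

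FKBP51 shares the receptor complex with FKBP52, the product of Fkbp4, which favours hormone binding and nuclear entry. Fkbp4 was 53.29 and 54.29 RPKM in Het and 58.82 and 57.44 RPKM in Nf1-KO and did not pass the test (log2 fold change 0.02, limma adjusted p 0.616). The ratio of Fkbp5 to Fkbp4 was 0.106 and 0.102 in the Het libraries and 0.474 in both Nf1-KO libraries. Fkbp5 thus came much nearer to the level of its counterpart in both Nf1-KO libraries than in either Het library.

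**Figure D3:**
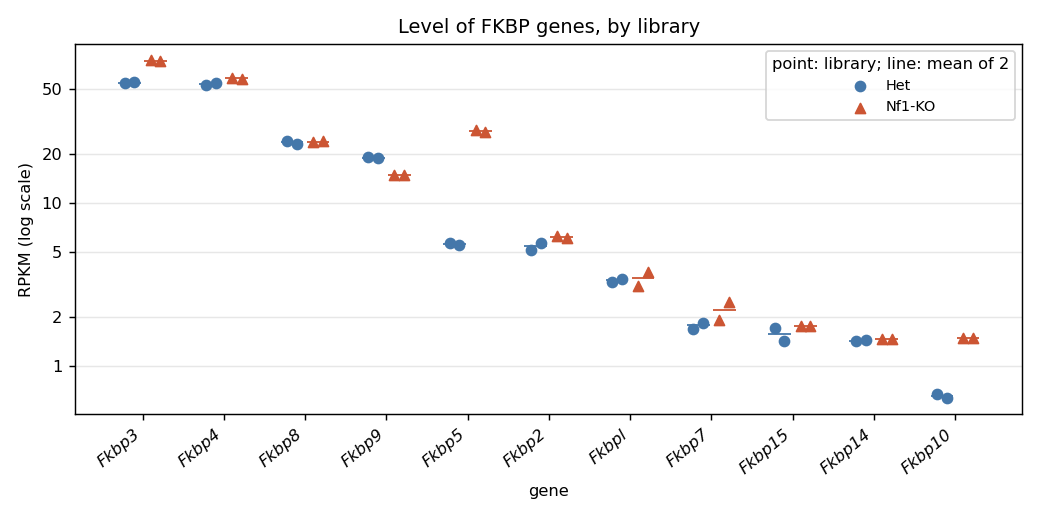
Level in RPKM, on a log axis, of Fkbp5 and the 10 other FKBP genes that passed the filter, ordered by their level in Het. Circles are Het libraries, triangles Nf1-KO libraries and short lines group means. Fkbp5 moves from 5.59 to 27.6 RPKM, past Fkbp9 and Fkbp8, while Fkbp4 goes from 53.8 to 58.1 RPKM.

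Other members of the FKBP family, proteins with a fold that binds the drug FK506, were measured for comparison. Of 13 listed, 10 were tested and 3 passed the limma threshold, 2 higher and 1 lower, against 50.3% of all tested genes. The median was 0.03 on the log2 scale. With unscaled values 5 passed, 4 higher and 1 lower. Fkbp10, a collagen chaperone of the endoplasmic reticulum, rose from 0.650 ± 0.0283 to 1.48 ± 0.00707 RPKM (SD, n = 2), which on the log2 scale is a change of 0.54 (limma adjusted p 4.0e-04). Fkbp3 rose by 0.35 and Fkbp9 fell by 0.43 on the log2 scale. Fkbp1a and Fkbp1b were listed at 0.02 to 0.18 RPKM and were not tested. These low values are given only as listed.

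The genes that hold the receptor, activate or inactivate its hormone or act with it on DNA had log2 fold changes between -0.34 and 0.08. Of 15 listed, 14 were tested and 5 passed the limma threshold, 1 higher and 4 lower, against 50.3% of all tested genes. The median was -0.03. With unscaled values 8 passed, 6 higher and 2 lower. The count was 3 without the second Het library and 2 without either Nf1-KO library. Stip1, the adaptor between Hsp70 and Hsp90, fell from 25.0 ± 0.424 to 20.8 ± 0.311 RPKM (SD, n = 2), which on the log2 scale is a change of -0.34 (limma adjusted p 2.2e-04). Hsp90aa1, the inducible Hsp90, fell from 12.4 ± 0.106 to 10.2 ± 0.403 RPKM, also -0.34. The more abundant Hsp90ab1 was 310.44 and 313.63 RPKM in Het and 323.69 and 318.27 RPKM in Nf1-KO and did not pass (log2 fold change -0.05, limma adjusted p 0.056). Its RPKM as deposited were higher in Nf1-KO, so the negative sign is that of the scaled values only. The authors' deposited table gave -0.07 for Hsp90ab1 (DESeq2 adjusted p 0.0067).

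Smaller calls in the same list were not stable. The coactivator gene Ncoa1 was -0.17 (limma adjusted p 0.023), and it lost its call unscaled (-0.09, limma adjusted p 0.139), with no filter (0.051) and when any single library was left out (0.050 to 0.142). Hspa8, the constitutive Hsp70, was -0.08 (limma adjusted p 0.0099), turned to 0.01 unscaled and lost its call without a variance trend (0.113) and without either Nf1-KO library (0.054 and 0.072). Bag1 was 0.08 (limma adjusted p 0.038) and 0.17 unscaled (0.0019), but lost its call with no filter (0.090), without a variance trend (0.161), without the second Het library and without either Nf1-KO library (limma adjusted p 0.063 to 0.206). Hsd11b1, which regenerates active hormone inside cells, was 2.23 and 2.25 RPKM in Het and 2.22 and 2.14 RPKM in Nf1-KO and did not pass (log2 fold change -0.09, limma adjusted p 0.186). The sister receptor Nr3c2 was 3.45 and 3.28 against 3.53 and 3.07 RPKM, with overlapping groups. Hsd11b2, which inactivates the hormone, was listed at 0.10 RPKM or less and not tested.

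A wider list of 28 genes known to be induced by glucocorticoids, in muscle or elsewhere, was counted next. Of 26 tested, 20 were higher and 3 lower past the limma threshold, and the median was 0.43 on the log2 scale. Over all tested genes 24.9% were higher and 25.4% lower. Per1 is in both this list and the clock list below. Lcn2 passed the filter only through Nf1-KO, and without it 19 of 25 were higher and the median was 0.40. Glul, glutamine synthetase, rose from 45.0 ± 0.332 to 150.2 ± 1.68 RPKM (SD, n = 2), which on the log2 scale is a change of 1.62 (limma adjusted p 2.8e-07). Angptl4, an inhibitor of lipoprotein lipase, was 0.75 and 0.81 RPKM in Het and 3.79 and 3.6 RPKM in Nf1-KO, a log2 fold change of 1.34. Pdk4, which restrains pyruvate oxidation, rose by 1.12, the cell cycle inhibitor Cdkn1a by 0.87 and Arrdc2 by 0.86 on the log2 scale.

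The genes of this list that were lower or did not pass are named here after their values were seen. Mstn (myostatin), Cebpd and Bcl6 fell by 0.63, 0.43 and 0.37 on the log2 scale. Dusp1, Trim63 and Hdac4 did not pass, with log2 fold changes of -0.01, 0.03 and -0.05 and limma adjusted p of 0.877, 0.370 and 0.405. Dusp1 is a phosphatase of MAP kinases and Trim63 the muscle ubiquitin ligase MuRF1. Many genes of the list answer to FoxO, p53 or fatty acids as well as to glucocorticoids, and their part was not tested.

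**Figure D4:**
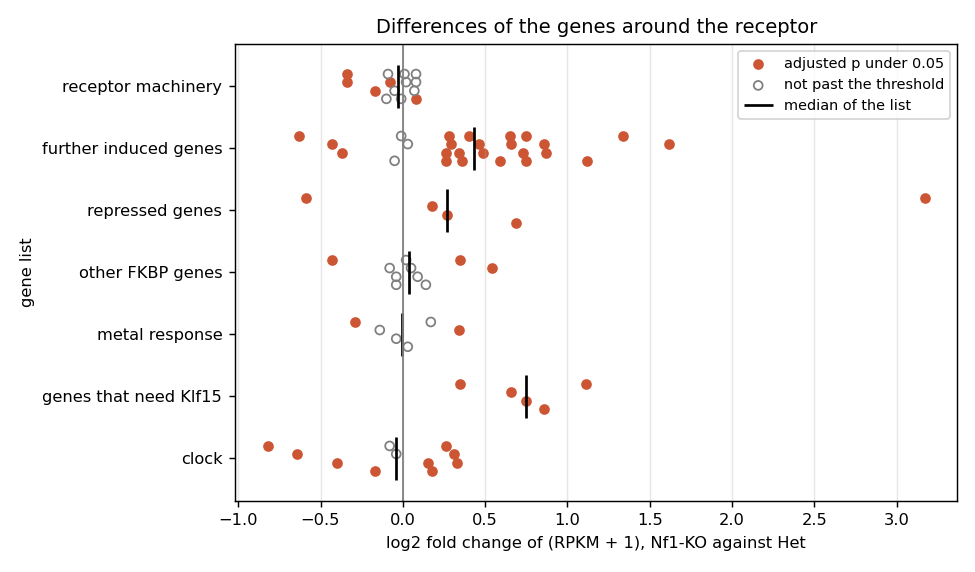
Log2 fold change of (RPKM + 1) in Nf1-KO against Het for each tested gene of 7 lists around the receptor. Filled points passed a limma adjusted p of 0.05, open points did not, and black bars are list medians. Mmp13 and Ccl2 (repressed), Mt3 (metal response) and Lcn2 (further induced) passed the filter only through Nf1-KO. The medians of the further induced genes (0.43) and of the genes that need Klf15 (0.75) lie to the right, and those of the receptor machinery (-0.03), other FKBP genes (0.03) and clock genes (-0.04) lie near 0.

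Of 10 genes known to be repressed by glucocorticoids in other cells, 5 were tested. Of these, Mmp13 and Ccl2 passed the filter only through the Nf1-KO libraries, where they are high, so their differences are given as values. Mmp13, a collagenase, was listed at 0.01 and 0.06 RPKM in Het and 8.48 and 8.75 RPKM in Nf1-KO. Ccl2, a chemokine that attracts monocytes, was listed at 0.07 and 0.17 against 0.98 and 0.7 RPKM. The other 3 passed the limma threshold, against 50.3% of all tested genes. Icam1 and Vcam1 were higher and Nos2 lower, and the median of the 3 was 0.18 on the log2 scale. In the authors' deposited table Nos2 passed (DESeq2 adjusted p 2.2e-08), but Icam1 (0.099) and Vcam1 (0.217) did not. Nos2 fell from 1.89 ± 0.0424 to 0.990 ± 0.0566 RPKM (SD, n = 2), which on the log2 scale is a change of -0.59. Vcam1 was 0.99 and 0.91 against 1.3 and 1.28 RPKM (log2 fold change 0.18, limma adjusted p 0.036), a call that was lost when any single library was left out (limma adjusted p 0.057 to 0.127). Il6, Il1b, Ptgs2 and Tnf were listed at 0.03 RPKM or less in every library, and Cxcl1 at 0.17, 0.11, 0.07 and 0.08 RPKM. None of these 5 was tested.

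Klf9, Klf15 and the clock gene Per1 follow the time of day as well as glucocorticoids, so clock genes were measured beside them. Of 13 listed, 11 were tested and 9 passed the limma threshold, against 50.3% of all tested genes. Of the clock genes 5 were higher and 4 lower, against shares of 24.9% and 25.4%, and the median log2 fold change was -0.04. Nr1d1, a repressor of the clock, fell from 40.7 ± 1.05 to 24.1 ± 0.735 RPKM (SD, n = 2), which on the log2 scale is a change of -0.82 (limma adjusted p 9.0e-06). Arntl and Clock, which form the activating pair, fell by 0.64 and 0.40 on the log2 scale. Per2 and Per3 rose by 0.31 and 0.33, and Per1 by 0.26. The clock output gene Dbp was 29.07 and 28.29 RPKM in Het and 27.84 and 29.91 RPKM in Nf1-KO, with overlapping groups. The hour at which the muscles were taken is not given in the labels, and the part of the clock in these results was not tested.

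The genes whose profile over the 4 libraries was most like that of Fkbp5 were sought among 10689 tested genes by the root mean square difference of their centred log2(RPKM + 1) values. The nearest were Ldhb (0.014), Nnt (0.033), Mmp9 (0.059), Tbc1d4 (0.060) and Acot1 (0.064). Ldhb, the heart-type subunit of lactate dehydrogenase, was 86.57 and 84.54 RPKM in Het and 374.56 and 376.03 RPKM in Nf1-KO. Nnt, the mitochondrial transhydrogenase, was 12.67 and 12.7 against 56.87 and 55.27 RPKM. Tbc1d4, a regulator of glucose transporter traffic, was 3.4 and 3.45 against 19.55 and 19.72 RPKM. Mmp9, a gelatinase, was listed at 0.13 and 0.06 against 3.41 and 3.8 RPKM and passed the filter only through Nf1-KO. Its likeness depends on the pseudocount: with 0.1 in place of 1 its log2 fold change was 4.20 in place of 2.03, against 2.19 for Fkbp5. With 2 groups of 2 libraries this likeness measures little beyond an equal difference between the groups.

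Markers of some other cell types differed between the genotypes too. The counts of these markers stand against 24.9% of all tested genes higher and 25.4% lower past the limma threshold. The summed level of 8 immune markers was 8.73 to 9.16 RPKM in Het and 27.9 to 28.1 RPKM in Nf1-KO, of which Lyz2 made up 7.38 to 7.47 and 24.35 to 24.62 RPKM. Of these 8, 3 were tested and all 3 were higher past the limma threshold, while Adgre1 was listed at 0 throughout. The sum of 7 fibroblast markers went from 94.3 to 96.9 RPKM in Het to 139 RPKM in each Nf1-KO library, with 5 of 7 higher past the threshold. The sum of 5 Schwann cell markers went from 14.7 to 15.1 RPKM in Het to 32.4 to 34.0 RPKM in Nf1-KO. All 5 were higher past the threshold, but Sox10 and S100b passed the filter only through Nf1-KO, where they are high. Without these genes 3 were tested, and all 3 were higher.

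The sum of 7 adipocyte markers was 179 to 186 RPKM in Het and 267 to 269 RPKM in Nf1-KO, nearly all of it Fabp4, with 3 of 4 tested genes higher past the threshold. The defining adipocyte gene Adipoq was 1.11 and 1.31 RPKM in Het and 0.95 and 1.05 RPKM in Nf1-KO. The sum of 7 endothelial markers was 85.2 to 85.6 against 91.0 to 92.7 RPKM, with 3 higher and 2 lower past the limma threshold. The sum of 5 satellite cell markers was 7.19 to 7.34 against 8.13 to 8.29 RPKM, most of it Cdh15. Of these, Pax7 and Cdh15 were tested and did not pass (limma adjusted p 0.093 and 0.699). The sum of 5 blood markers was 1.37 to 1.47 against 1.66 to 1.78 RPKM, nearly all of it Alas2, the only one tested (limma adjusted p 0.136). The globin genes Hba-a1 and Hbb-b1 were listed at 0.05 RPKM or less. The part of cell composition in the values of the 10 genes was not tested. In RNA of whole muscle, fewer cells of a type and less RNA per cell cannot be told apart.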

How the data were processed

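RNA of tibialis anterior muscle was sequenced in 4 libraries, 2 Het and 2 Nf1-KO; per the labels' protocols, RNA was column-purified and libraries made with a TruSeq RNA v2 kit. Per the submitters' processing notes, STAR 2.4.2a, DESeq2 and mouse build mm9 were used; the counting program, gene annotation and use of strand are not given in the sources used here. The authors deposited 1 value per gene and library, taken from the values as RPKM, since no header names the unit; sums were 532315 to 547144 per library. Their comparison table, per the file headers, holds a mean normalized count (a signal averaged over libraries), a log2 fold change with its standard error, a test score, and a p-value with its adjusted value. Library totals were not used here; the mean normalized counts of the authors' deposited table sum to 49580600, and those of the 10 genes ran from 221 to 9966. No intervals are given.

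Rows named by a number (33) were left out, and the copy with the highest mean was kept of names with copies, which left 32868 names; 44.7% of rows were at 0 in all libraries. Libraries were scaled by a trimmed mean of log ratios without weights (trimming, per end, 30% by ratio and 5% by abundance; factors 0.968, 0.967, 1.03 and 1.03) over genes of at least 0.5 RPKM in at least 2 libraries, which were also the genes tested. The test, on log2(RPKM + 1), was two-sided in limma 3.58.1 (R 4.3.3), allowing for a variance trend and using no covariate, with Benjamini-Hochberg adjustment over 10690 genes and a threshold of 0.05; the procedure was tested on simulated data. Fold changes are of scaled values; means, SD and ratios are of RPKM as deposited. An exact permutation test of 2 against 2 libraries cannot go below 0.333. The 10 genes and the lists were chosen with earlier results of these data known. Named from each list were up to 5 genes with the largest absolute log2 fold change among those past the threshold with a mean of at least 1 RPKM, and the 5 genes nearest to Fkbp5; other names given from the lists were chosen after their values were seen. Alternatives were another pseudocount, 2 other filters, no scaling, no variance trend, a replicate block, summed copies and each library left out. Promoter windows came from RefSeq and exon overlaps and shared stretches from GENCODE M21, both of GRCm38, and no coordinates were moved between builds. One further Schwann cell marker of the list is not reported here.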

Additional observations from a re-analysis of the deposited data

How the results depend on the processing

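Of 549 values under 11 alternatives, 486 changed neither direction nor call (for Fkbp5 and its 5 nearest genes, which have no test, a shift under 1 SD of the replicates, and for counts a change within 1.5 times). The count of called genes among the 9 stayed at 7 or 8, and Klf15, Klf9, Mt1, Mt2, Ddit4, Zbtb16 and Tsc22d3 kept their calls in each of the 11. The receptor machinery list, with 5 called, had 3 with no filter, 8 (6 of them higher) with unscaled values, 3 without a variance trend, and 2 to 4 when a library was left out. The other FKBP genes went from 3 called to 5 with unscaled values. With at least 1 RPKM in every library, the repressed list had 0 called by limma because none of its genes was tested, and the metal list had 0 called of 4 tested, with 2 at an unadjusted p under 0.05, since Slc39a14 and Mt3 then fell below the filter. With a library left out, the repressed list had 2 to 4 called and the metal list 0 to 2; without either Nf1-KO library, Mmp13 and Ccl2 were below the filter and not tested. Hspa8 turned to 0.01 unscaled. Except for the filter, the cause was not tested. Fkbp5 ran from 2.01 to 2.19, the highest with a pseudocount of 0.1. With the replicate number as a block, 8 of the 9 genes were called and no count moved by over 1.5 times; of the named genes only Nf1 lost its call (limma adjusted p 0.054). Same-numbered libraries shared only a number: their deviations had a correlation of -0.0179 across genes. Depth limits Mt2 most, with a mean normalized count of 221 in the authors' deposited table.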
